A study of Mus musculus with 16 samples.

Results

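The 9 genes described here are osteoclast differentiation and fusion genes: *Acp5*, *Ctsk*, *Mmp9*, *Dcstamp*, *Ocstamp*, *Atp6v0d2*, *Nfatc1*, *Calcr* and *Oscar*. They were chosen by name, and all 9 were found among the 32285 genes of the matrices. They were measured by single-cell RNA-Seq in mouse bone marrow stromal cell (BMSC) cultures, in which marrow cells grow under osteogenic conditions and myeloid cells persist beside the stromal cells. All cultures came from 12-week-old mice and were grown for 21 days in osteogenic medium with 10 mM β-glycerophosphate (bGP) and ascorbic acid, and the medium as described names no added RANKL or M-CSF.

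The 4 genotypes were WT, Fgf23cKO, Dmp1KO and Dmp1KO/Fgf23cKO. *Fgf23* encodes a phosphate-regulating hormone made by bone cells, and *Dmp1* a matrix protein of osteocytes. In Fgf23cKO, a floxed *Fgf23* allele is deleted by Cre under the *Dmp1* promoter, which is active in mature osteoblasts and osteocytes. In Dmp1KO, *Dmp1* is deleted in every cell, and Dmp1KO/Fgf23cKO carries both deletions. By the study's account its WT and Dmp1KO mice carried floxed *Fgf23* without Cre, and the labels do not give these alleles. Cells were released with trypsin, sorted as live and passed through a 40 µm mesh, and how many multinucleated cells came through these steps was not measured. Each culture carried its own CellPlex tag, and the cultures of a genotype were run in 1 droplet reaction, so an effect of the reaction and one of the genotype cannot be told apart. Tests used 11 tagged cultures: 3 WT, 3 Fgf23cKO, 2 Dmp1KO (numbered 2 and 3; the first was not analysed here) and 3 Dmp1KO/Fgf23cKO. The study counts mice per genotype and speaks of individual cultures, but no label ties a culture to its own mouse, so p-values are read as measuring the spread between these cultures.

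Osteoclasts are multinucleated, bone-resorbing cells that form when myeloid precursors respond to M-CSF and RANKL and fuse. RANKL signaling and costimulatory receptors induce the transcription factor NFATc1, which turns on the genes of fusion and then those of resorption. *Oscar* encodes a collagen-binding costimulatory receptor and *Calcr* the calcitonin receptor, a late marker. *Dcstamp* and *Ocstamp* encode transmembrane proteins required for fusion. *Atp6v0d2* encodes a subunit of the vacuolar proton pump that also takes part in fusion, and is expressed in macrophages too. *Acp5* encodes tartrate-resistant acid phosphatase, *Ctsk* the collagen-degrading protease cathepsin K, and *Mmp9* a gelatinase.

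In GRCm38 (GENCODE M21), *Oscar* lies at chr7:3609813-3616157, *Calcr* at chr6:3685680-3764714, *Dcstamp* at chr15:39745930-39760938, *Ocstamp* at chr2:165393760-165400405, *Atp6v0d2* at chr4:19876841-19922605, *Acp5* at chr9:22126727-22135711, *Ctsk* at chr3:95499256-95509362 and *Mmp9* at chr2:164940780-164955850.

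Promoter windows from RefSeq (GRCm38) matched 4 of the 9 genes (7 windows), and *Mmp9*, *Dcstamp*, *Ocstamp*, *Atp6v0d2* and *Nfatc1* had none. The 250 bases upstream of a start of *Acp5*, *Ctsk* and *Oscar* are printed because these genes, with others that have no window, were highest in the same cluster of myeloid-like cells (below), and the window farthest upstream is shown for *Acp5*, which has 3. Capitals mark the NFAT core GGAAA on either strand (TTTCC on the printed strand where it lies on the other). *Acp5* is chr9:22135747-22135996, minus strand, *Ctsk* chr3:95498960-95499209, plus strand, and *Oscar* chr7:3616158-3616407, minus strand.
Acp5: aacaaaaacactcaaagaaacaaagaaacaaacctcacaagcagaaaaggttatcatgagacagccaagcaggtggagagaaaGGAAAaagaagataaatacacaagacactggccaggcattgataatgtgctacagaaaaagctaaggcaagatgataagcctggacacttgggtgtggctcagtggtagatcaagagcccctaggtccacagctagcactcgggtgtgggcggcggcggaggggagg
Ctsk: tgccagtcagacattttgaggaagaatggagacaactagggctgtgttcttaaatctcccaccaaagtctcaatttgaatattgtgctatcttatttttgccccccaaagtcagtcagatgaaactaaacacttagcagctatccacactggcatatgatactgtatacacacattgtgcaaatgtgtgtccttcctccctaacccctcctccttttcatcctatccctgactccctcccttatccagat
Oscar: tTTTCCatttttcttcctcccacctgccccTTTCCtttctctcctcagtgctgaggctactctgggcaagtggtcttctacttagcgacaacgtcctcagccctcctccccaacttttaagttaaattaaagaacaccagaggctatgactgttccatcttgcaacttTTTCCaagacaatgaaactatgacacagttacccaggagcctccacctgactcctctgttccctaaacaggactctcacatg
The core occurred 1 time in the printed *Acp5* window and 2 and 1 times in its other windows, 0 times in the *Ctsk* window and 3 times in the *Oscar* window. It occurred 0 and 1 times in the windows of *Calcr*, which is not printed because its UMIs came from a few cells, and 55.6% of all 32851 windows of this kind hold it. The AP-1 motif TGANTCA, searched on both strands, occurred 0 times in the windows of these genes and in 6.75% of all windows.

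The 15 samples held 17793 cells, 14577 of them in tagged cultures, with 470 to 2825 cells and 9518928 to 72482185 UMIs per tagged culture. Of 20 clusters, 11 were called myeloid-like (13271 cells), 4 stromal-like (1651 cells) and 5 stayed unnamed. Clusters were made without the 9 genes and without the pathway genes below. Median UMIs per myeloid-like cell ranged from 7657 to 8139 in WT, 36014 to 40066 in Fgf23cKO, 21287 to 23288 in Dmp1KO and 36018 to 37155 in Dmp1KO/Fgf23cKO cultures, so shares of cells were compared after thinning each cell to 1300 UMIs, which left out 7 WT and 2 Fgf23cKO cells. The genotypes were spread unevenly over the myeloid-like clusters. WT cells made up 97.9% of the cluster of 3000 cells (led by *Marco* and *Maf*), which held 2937 of 4220 WT cells. Dmp1KO cells made up 96.5% of the cluster of 1492 cells (led by *Itgax* and *Mmp12*), 95.4% of that of 262 cells, 78.7% of that of 1855 cells and 78.1% of that of 1247 cells, and no cluster held most of the 5460 Dmp1KO cells. The cluster of 3164 cells held 912 of 1716 Fgf23cKO and 1417 of 1875 Dmp1KO/Fgf23cKO cells. Summed stromal and osteoblast markers in myeloid-like cells, all 14 of which were detected in each genotype, stood at 175 to 194 CPM in WT, 288 to 295 in Fgf23cKO, 85.8 to 90.8 in Dmp1KO and 439 to 453 in Dmp1KO/Fgf23cKO cultures, and their part in the results below was not tested. Barcodes shared between samples numbered 0 within a genotype and 44 across genotypes. As a check of the deletions, *Dmp1* stood at 27.3 to 108 CPM over all cells of WT, 7.55 to 65.0 of Fgf23cKO, 0 to 0.0477 of Dmp1KO and 1.32 to 2.16 of Dmp1KO/Fgf23cKO cultures. Dmp1KO cells made up 4.20% and Dmp1KO/Fgf23cKO cells 37.3% of the stromal-like cluster of 381 cells, which had *Dmp1* among its leading genes. With so few such cells the check is weak in Dmp1KO. *Fgf23* was near 0 in every genotype, at most 0.525 CPM, and cannot check its deletion here.

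Most UMIs of each of the 9 genes came from the myeloid-like cells, which are also 13271 of the 17793 cells. The share of a gene's UMIs found there ranged from 84.0% for *Oscar* to 97.7% for *Dcstamp*, and stromal-like cells held 11.5% of *Nfatc1* and 8.36% of *Ctsk* UMIs. *Nfatc1* stood at 47.1 CPM in the stromal-like cluster of 418 cells, within its range over the myeloid-like clusters (16.3 to 338 CPM). One cluster of 329 cells stood apart. It expressed *Ctsk* at 3486 CPM (UMIs of the gene in each 1e6 UMIs of these cells), *Acp5* at 1866, *Mmp9* at 866, *Nfatc1* at 338, *Dcstamp* at 79.2, *Ocstamp* at 45.9, *Oscar* at 20.5 and *Calcr* at 12.4, each the highest of the 11 myeloid-like clusters. It held 100% of the *Calcr*, 96.7% of the *Mmp9*, 88.5% of the *Oscar*, 86.3% of the *Ocstamp* and 77.5% of the *Acp5* UMIs of myeloid-like cells. Its leading genes outside the 9, by fold, included *Vegfc*, *Bdh2* and *Plxna4*.

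The other genes were spread more widely. The cluster of 329 cells held 39.9% of the *Ctsk*, 20.5% of the *Nfatc1*, 16.5% of the *Dcstamp* and 3.75% of the *Atp6v0d2* UMIs of myeloid-like cells. *Atp6v0d2* was highest elsewhere, at 1307 CPM in the cluster of 1247 cells (led by *Fbxo32* and *Rhov*) and 813 CPM in that of 1492 cells, against 511 CPM in the cluster of 329 cells. The cluster of 1492 cells also held *Ctsk* at 428 CPM and *Dcstamp* at 46.2 CPM, with *Mmp9* at 0.115 CPM and *Nfatc1* at 16.3 CPM, the lowest *Nfatc1* level of the 11 clusters. In the cluster of 1247 cells *Ctsk* stood at 316, *Dcstamp* at 16.5 and *Mmp9* at 0.450 CPM, and in that of 1855 cells at 78.8, 6.06 and 0.731 CPM.

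**Figure D1:**
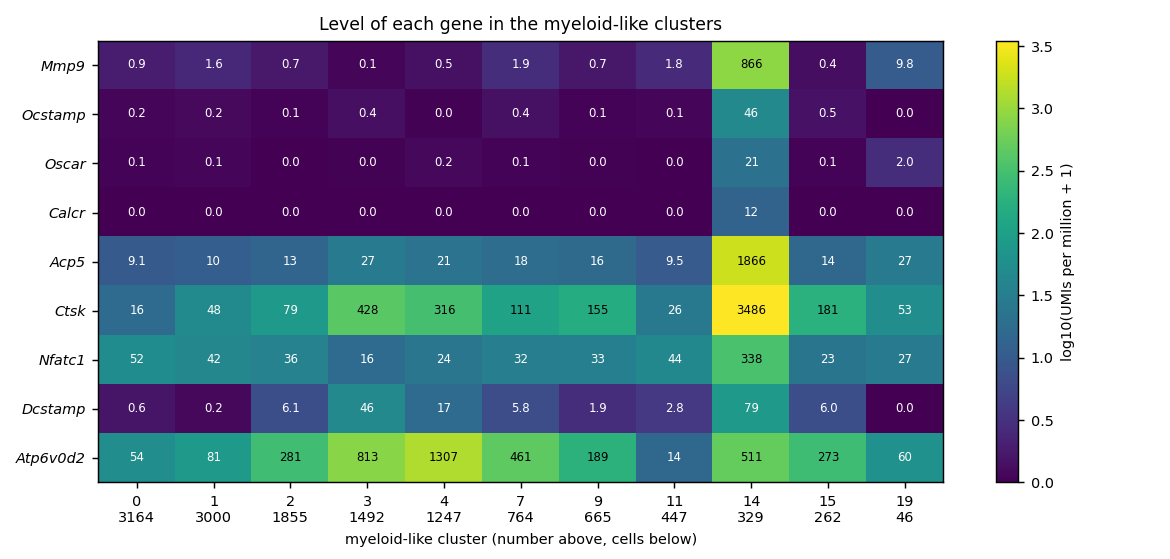
Heat map of the level of the 9 genes (rows) in the 11 myeloid-like clusters (columns, with cluster number and number of cells), over all genotypes. Cell labels are CPM, and color is log10 of CPM plus 1. The cluster of 329 cells is highest for 8 genes, and *Atp6v0d2* is highest in the cluster of 1247 cells.

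The cluster of 329 cells took a different share of each culture. It made up 7.26%, 5.06% and 5.88% of the myeloid-like cells of the WT cultures, 2.59%, 2.47% and 2.82% of the Fgf23cKO, 0.116% and 0.206% of the Dmp1KO, and 1.06%, 0.640% and 1.28% of the Dmp1KO/Fgf23cKO cultures. The 4 genotypes did not overlap. These shares are given without a test, since the cluster was singled out after the data were examined. In counts of cells this is 62, 85 and 84 WT, 9, 8 and 12 Fgf23cKO, 3 and 5 Dmp1KO, and 8, 4 and 5 Dmp1KO/Fgf23cKO cells. Within the cluster, over all cells of a genotype, untagged cells included, *Ctsk* stood at 3434 CPM in WT, 2995 in Fgf23cKO, 2708 in Dmp1KO and 4805 in Dmp1KO/Fgf23cKO. *Mmp9* within the cluster was 663 CPM in WT, 528 in Fgf23cKO, 1284 in Dmp1KO and 2060 in Dmp1KO/Fgf23cKO, where the cluster has 8 and 19 cells. In Dmp1KO 1 cell held 250 of the 282 *Mmp9* UMIs of the cluster, and in Fgf23cKO 1 cell held 611 of 1680. In Dmp1KO/Fgf23cKO the leading cells of cultures 1, 2 and 3 held 645, 1033 and 197 of 3014. Pooled levels inside the cluster did not follow its shares, and for *Mmp9* they rest on few cells. In a sum over the myeloid-like cells of a culture, as tested below, fewer expressing cells and less RNA per cell cannot be told apart.

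The transcription factor gene *Nfatc1* (GRCm38 chr18:80606205-80713071) was lowest in Dmp1KO. Its level in myeloid-like cells was 69.8, 55.6 and 71.4 CPM in the WT cultures, 63.2, 63.0 and 46.0 in Fgf23cKO, 25.3 and 27.7 in Dmp1KO, and 55.1, 56.3 and 55.0 in Dmp1KO/Fgf23cKO. Both Dmp1KO cultures lay below every other culture, and the other 3 genotypes overlapped. At 1300 UMIs, 3.77% and 3.95% of Dmp1KO myeloid-like cells had an *Nfatc1* UMI, against 5.96% to 7.03% in WT and 0% to 5.36% in the stromal-like cells of the tagged cultures.

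Receptor genes were scarce. *Oscar* stood at 1.96, 1.81 and 1.89 CPM in WT, 0.552, 2.16 and 0.244 in Fgf23cKO, 0.0572 and 0.135 in Dmp1KO, and 0.169, 1.92 and 0.446 in Dmp1KO/Fgf23cKO cultures, from 66, 43, 12 and 58 UMIs per genotype. Dmp1KO was below the rest, and Fgf23cKO and Dmp1KO/Fgf23cKO each had 1 culture at the WT level. In those cultures 1 cell held 28 of 31 and 43 of 46 *Oscar* UMIs. Without the leading *Oscar* cell of each culture, levels were 0.697 to 1.44 CPM in WT and 0.183 to 0.209 in Fgf23cKO. They were then 0.0429 and 0.0677 CPM in Dmp1KO and 0 to 0.125 in Dmp1KO/Fgf23cKO, which overlap. *Calcr* had 24 UMIs in WT, 11 in Fgf23cKO, 0 in Dmp1KO and 72 in Dmp1KO/Fgf23cKO cultures. Nearly all came from single cells: 21 of 22 UMIs in WT culture 2, all 11 in Fgf23cKO culture 2, and all 35 and all 37 in Dmp1KO/Fgf23cKO cultures 1 and 2. The *Calcr* levels therefore describe a few cells.

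The fusion genes did not move together. *Dcstamp* stood at 9.43, 6.48 and 14.7 CPM in WT, 5.65, 5.93 and 3.60 in Fgf23cKO, 22.9 and 19.8 in Dmp1KO, and 2.03, 5.21 and 5.48 in Dmp1KO/Fgf23cKO cultures. *Atp6v0d2* stood at 187, 144 and 170 CPM in WT, 175, 174 and 245 in Fgf23cKO, 642 and 581 in Dmp1KO, and 165, 192 and 165 in Dmp1KO/Fgf23cKO. Both genes were highest in the Dmp1KO cultures, with no overlap, and for *Atp6v0d2* the other 3 genotypes overlapped. *Ocstamp* went the other way, at 6.42, 2.72 and 4.83 CPM in WT, 2.34, 6.14 and 0.488 in Fgf23cKO, 0.386 and 0.203 in Dmp1KO, and 0.406, 2.46 and 1.21 in Dmp1KO/Fgf23cKO. *Atp6v0d2* was found in many cells: at 1300 UMIs, 44.8% and 37.6% of Dmp1KO myeloid-like cells had a UMI, against 11.5% to 13.4% in WT, 8.95% to 18.8% in Fgf23cKO and 10.2% to 11.3% in Dmp1KO/Fgf23cKO, and 0% to 7.00% in stromal-like cells. The corresponding shares for *Dcstamp* were 2.50% and 2.14% in Dmp1KO and 0.536% to 0.938% in WT.

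The resorption genes *Acp5* and *Mmp9* had their highest mean in WT and their lowest in Dmp1KO. *Acp5* stood at 189, 138 and 163 CPM in WT, 78.1, 156 and 25.3 in Fgf23cKO, 19.5 and 26.1 in Dmp1KO, and 57.3, 133 and 49.8 in Dmp1KO/Fgf23cKO. *Mmp9* stood at 123, 48.4 and 66.4 CPM in WT, 4.07, 78.9 and 1.04 in Fgf23cKO, 0.658 and 4.64 in Dmp1KO, and 25.6, 86.9 and 14.3 in Dmp1KO/Fgf23cKO. The cultures of Fgf23cKO and Dmp1KO/Fgf23cKO spread widely, with culture 2 of each near or in the WT range, and Fgf23cKO culture 3 overlapped Dmp1KO for both genes. *Ctsk* stood at 509, 291 and 449 CPM in WT, 258, 273 and 119 in Fgf23cKO, 266 and 245 in Dmp1KO, and 106, 165 and 114 in Dmp1KO/Fgf23cKO, so every WT culture lay above the rest. Yet at 1300 UMIs *Ctsk* was detected in 11.5% and 10.5% of Dmp1KO and 5.74% to 5.90% of WT myeloid-like cells, against 5.00% to 20.5% of stromal-like cells. *Ctsk* is expressed by stromal-like cells too (73.9 to 292 CPM in their clusters), so these shares alone do not show myeloid expression. The myeloid-like clusters ranged from 16.5 to 3486 CPM, with 428 and 316 in those of 1492 and 1247 cells. Myeloid-like cells held 96.6% of the *Ctsk* UMIs of Dmp1KO and 89.6% of those of WT. What stromal RNA adds to the shares was not tested.

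**Figure D2:**
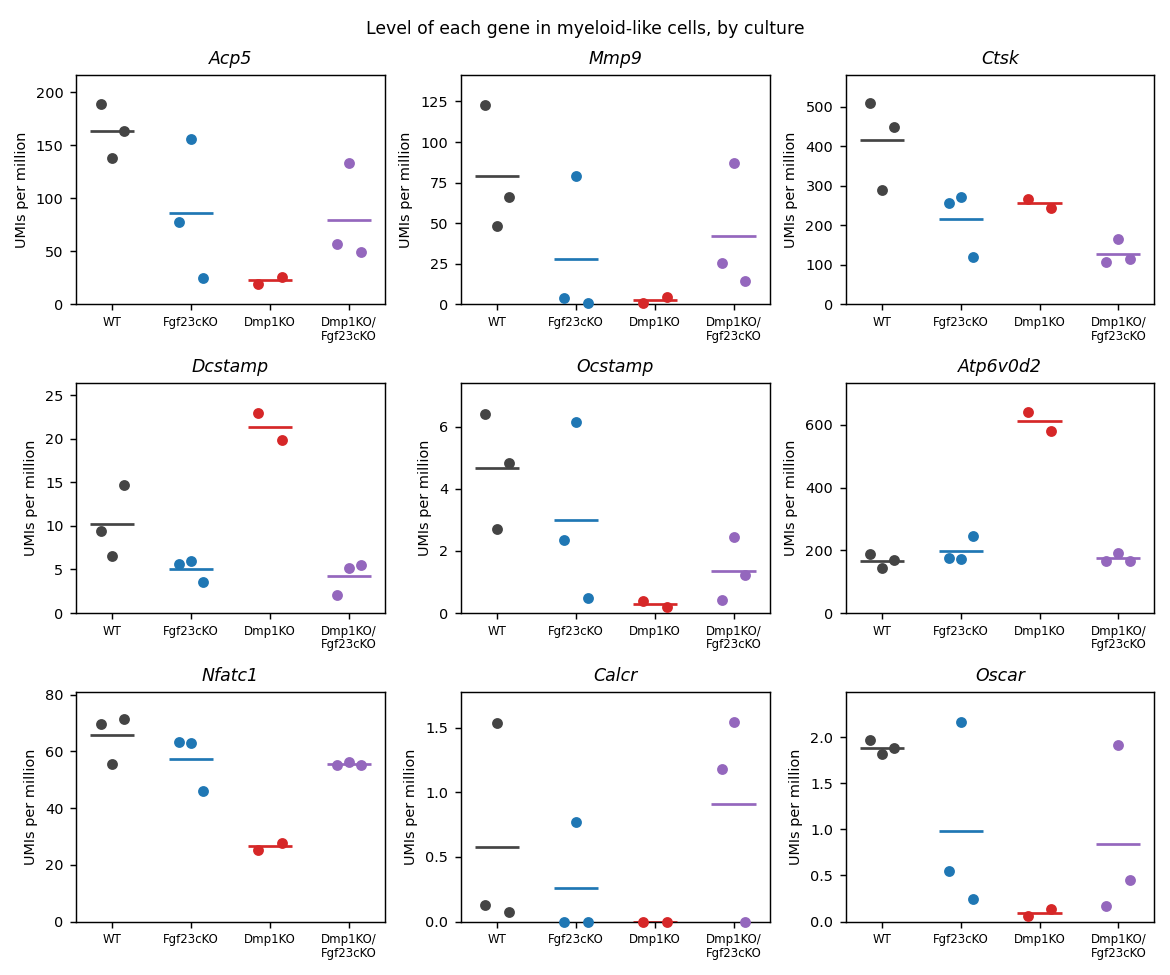
Level of each gene in myeloid-like cells of the 11 tagged cultures, in CPM, by genotype. Points are cultures and bars are means. *Atp6v0d2* and *Dcstamp* are highest in both Dmp1KO cultures, and *Nfatc1*, *Ocstamp* and *Oscar* are lowest there.

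Single cells carried much of several values. In the Dmp1KO/Fgf23cKO cultures, 1 cell held 68.7%, 63.6% and 65.3% of the *Acp5* UMIs of the culture and 47.4%, 50.2% and 57.6% of the *Ctsk* UMIs. For *Mmp9*, 1 cell held 250 of 274 UMIs in Dmp1KO culture 3 and 611 of 1132 in Fgf23cKO culture 2. By contrast, the leading cell held 2.18% and 2.47% of *Dcstamp* UMIs in the Dmp1KO cultures. The cell with the most UMIs of the 9 genes in each of the 15 samples lay in the cluster of 329 cells in 12 samples, with 6 to 9 of the genes detected. Such cells were deep in some samples (129408 UMIs in Dmp1KO/Fgf23cKO culture 3, against a median of 37155), and no doublet caller was run, so whether any of them is a multiplet was not tested. Comparisons are therefore also given without these leading cells and without the cluster of 329 cells, both chosen after the data were examined. Both were picked from the counts of these same genes. Adjusted p-values without them, here and below, describe the remaining cells and are not independent tests.

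The comparison of Dmp1KO with WT asks what changed with loss of DMP1. In myeloid-like cells *Atp6v0d2* rose by 2.13 (log2 fold change; SE 0.14, adjusted p = 1.31e-08, edgeR) and *Dcstamp* by 1.32 (SE 0.29, adjusted p = 0.00112). *Nfatc1* fell by 1.05 (SE 0.12, adjusted p = 2.94e-06), *Acp5* by 2.58 (SE 0.55, adjusted p = 0.000843), *Mmp9* by 4.66 (SE 1.22, adjusted p = 0.00399), *Ocstamp* by 3.62 (SE 0.80, adjusted p = 0.00118) and *Oscar* by 4.01 (SE 0.94, adjusted p = 0.00177). *Calcr* was called lower from 24 UMIs against 0 and gets no fold here. *Ctsk* did not pass the test (-0.44, SE 0.29, adjusted p = 0.19). So 2 of the 9 genes were higher, where 35.8% of 13739 genes were called higher, and 6 were lower, where 34.2% were called lower, at the study's threshold of an adjusted p under 0.1. All 11 cultures were fitted together with 2 Dmp1KO cultures, and the TMM factors of these (0.847 and 0.869) lay below those of the others (1.02 to 1.05).

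Directions of *Ctsk* and *Acp5* depended on the cluster of 329 cells. It held 85.4% of the WT and 1.63% of the Dmp1KO *Ctsk* UMIs of myeloid-like cells. For *Acp5* these shares were 93.2% and 16.8%, untagged samples included in both. Leaving the cluster out therefore lowers WT far more than Dmp1KO. Without the cluster, 6 of the genes were tested, and *Ocstamp*, *Oscar* and *Calcr* fell under the filter on low counts. *Ctsk* then rose by 2.34 (SE 0.20, adjusted p = 1.03e-07), at 266 and 236 CPM in Dmp1KO against 48.8, 61.6 and 64.3 in WT. *Acp5* rose by 0.95 (SE 0.17, adjusted p = 0.00015), at 19.3 and 17.6 CPM against 9.20, 12.4 and 11.6. *Dcstamp* rose by 3.13 (SE 0.42) and *Atp6v0d2* by 2.42 (SE 0.18), both called. *Nfatc1* fell by 0.39 (SE 0.08, adjusted p = 0.000474) and *Mmp9* by 2.58 (SE 0.35, adjusted p = 1.09e-05), the latter from levels of 1.59 to 2.93 CPM in WT. Without the leading cells in place of the cluster, the same 2 genes were called higher and 5 lower among 8 tested, *Calcr* being filtered out, and the fall of *Mmp9* was 6.49 (adjusted p = 0.00151).

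Pooled *Atp6v0d2* levels were also compared within clusters. In the cluster of 1247 cells *Atp6v0d2* stood at 1387 CPM in Dmp1KO, 1331 in WT, 1031 in Fgf23cKO and 1324 in Dmp1KO/Fgf23cKO cells, and in the cluster of 3164 cells at 90.8, 97.1, 40.7 and 53.0 CPM in the same order. In the cluster of 665 cells (led by *Cdc20* and *Cenpf*) it stood at 283 CPM in Dmp1KO, 14.4 in WT, 16.1 in Fgf23cKO and 37.4 in Dmp1KO/Fgf23cKO cells. At resolution 1.2, clusters of 361 and 313 cells had both among their leading genes. Dmp1KO cells made up 98.3% and 26.2% of these, with *Atp6v0d2* at 326 and 19.4 CPM. In Dmp1KO and WT it stood at 457 and 427 CPM in the cluster of 764 cells and 455 and 422 in that of 329. In those of 1855 and 447 cells it stood at 333 and 141 and at 44.4 and 10.1 CPM. These are pooled values without a test, and WT had 38, 55 and 125 cells in the clusters of 1247, 3164 and 665 cells.

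The comparison of Fgf23cKO with WT asks what changed with loss of *Fgf23* in mature osteoblasts and osteocytes. In myeloid-like cells *Ctsk* fell by 0.95 (SE 0.26, adjusted p = 0.00881, edgeR) and *Dcstamp* by 1.04 (SE 0.35, adjusted p = 0.0263). These were 2 of 9 lower, where 24.8% of genes were called lower, and 0 of 9 higher, where 25.8% were called higher. The other 7 genes had log2 fold changes from -1.50 (*Mmp9*, SE 0.92, adjusted p = 0.208) to 0.24 (*Atp6v0d2*, SE 0.13, adjusted p = 0.145). The count changed when single cultures were left out: it was 9 without Fgf23cKO culture 2, 4 without Fgf23cKO culture 1 and 1 without WT culture 3. For every comparison, shares of all genes called without a culture, the leading cells or the cluster are not given. Counts of the 9 genes in such refits are therefore a description. Without the leading cells 5 genes passed, all lower: *Ctsk* (-1.28), *Dcstamp* (-1.49), *Oscar* (-1.98), *Acp5* (-1.23) and *Nfatc1* (-0.27). Without the cluster of 329 cells *Ctsk* turned to a rise of 0.59 (SE 0.19, adjusted p = 0.0233), *Mmp9* fell by 1.46 (SE 0.34, adjusted p = 0.00301) and *Atp6v0d2* passed with 0.39 (SE 0.17, adjusted p = 0.0723).

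Dmp1KO/Fgf23cKO was compared with WT and with Dmp1KO, to ask whether the deletion of *Fgf23* shifted the Dmp1KO pattern. Compared with WT, 5 genes were lower, where 30.2% of genes were called lower, and 0 were higher, where 29.6% were called higher. *Ctsk* fell by 1.73 (SE 0.27, adjusted p = 9.54e-05), *Dcstamp* by 1.39 (SE 0.34, adjusted p = 0.00365), *Ocstamp* by 1.78 (SE 0.67, adjusted p = 0.0374), *Acp5* by 1.05 (SE 0.45, adjusted p = 0.0666) and *Nfatc1* by 0.27 (SE 0.11, adjusted p = 0.0443). *Atp6v0d2* differed by 0.03 (SE 0.13, adjusted p = 0.868). The count was 2 without WT culture 1, WT culture 3 or Dmp1KO/Fgf23cKO culture 1. Without the leading cells the fall of *Acp5* was 2.31 (adjusted p = 0.000261) and *Oscar*, at -1.18 (adjusted p = 0.176) with all cells, fell by 4.80 (adjusted p = 8.45e-05). Without the cluster of 329 cells 3 genes passed: *Mmp9* fell by 0.80 (adjusted p = 0.0337), *Ctsk* by 0.98 (adjusted p = 0.00103), and *Nfatc1* turned to a rise of 0.25 (adjusted p = 0.00934).

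Compared with Dmp1KO, all 9 genes passed in the double-deleted cultures. *Atp6v0d2* fell by 2.10 (SE 0.14, adjusted p = 2.16e-08), *Dcstamp* by 2.70 (SE 0.30, adjusted p = 2.62e-06) and *Ctsk* by 1.28 (SE 0.28, adjusted p = 0.00123), 3 lower where 37.8% of genes were. *Nfatc1* rose by 0.78 (SE 0.12, adjusted p = 4.3e-05), *Mmp9* by 3.80 (SE 1.2, adjusted p = 0.0134), *Oscar* by 2.83 (SE 0.97, adjusted p = 0.0203), *Acp5* by 1.54 (SE 0.53, adjusted p = 0.0206) and *Ocstamp* by 1.83 (SE 0.86, adjusted p = 0.078). With *Calcr* (72 UMIs against 0), 6 were higher where 29.8% of genes were. Its 35 and 37 UMIs in Dmp1KO/Fgf23cKO cultures 1 and 2 came from 1 cell each, so its call describes a few cells. Part of the rises rested on single cells. Without the leading cell of each sample 5 genes passed, and *Acp5* (0.29, adjusted p = 0.584), *Ocstamp* (0.71, adjusted p = 0.487) and *Oscar* (-0.73, adjusted p = 0.581) did not. *Calcr* was then filtered out and not tested. The count was also 5 without Dmp1KO culture 2. Without the cluster of 329 cells *Acp5* turned to a fall of 0.98 (adjusted p = 4.43e-05), and *Ctsk* fell by 3.31 (adjusted p = 6.38e-09).

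The change with *Fgf23* deletion differed between the WT and the Dmp1KO background for 8 of the 9 genes (interaction term, edgeR). It was more positive on the Dmp1KO background for *Mmp9*, *Ocstamp*, *Calcr*, *Oscar*, *Acp5* and *Nfatc1*, 6 where 30% of genes were called so, and more negative for *Atp6v0d2* and *Dcstamp*, 2 where 34.1% were. For *Atp6v0d2* the difference was -2.35 (SE 0.19, adjusted p = 2.12e-07) and for *Nfatc1* 0.98 (SE 0.16, adjusted p = 0.00011). *Ctsk* did not pass with all myeloid-like cells (-0.33, SE 0.38, adjusted p = 0.487), and passed without the cluster of 329 cells (-3.90, SE 0.28, adjusted p = 4.05e-08). *Acp5* passed in both, with opposite signs (2.47 with the cluster and -1.27 without it). The comparisons share cultures, so their results are not independent of each other.

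**Figure D3:**
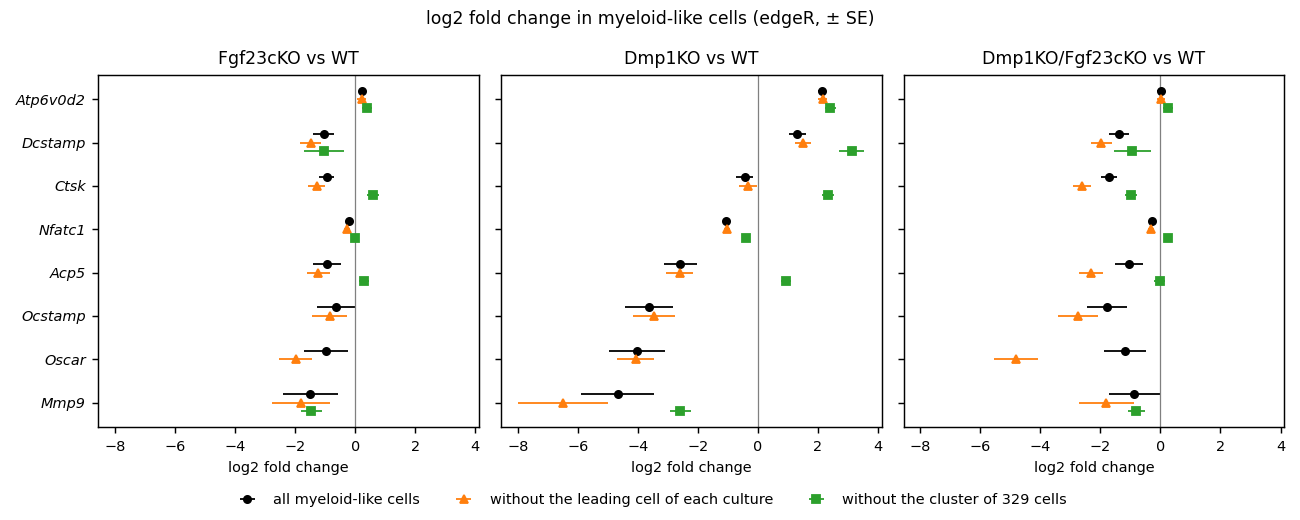
log2 fold change (x axis) of 8 genes in myeloid-like cells against WT for Fgf23cKO, Dmp1KO and Dmp1KO/Fgf23cKO, with bars for ± SE from edgeR. Circles use all myeloid-like cells, triangles leave out the leading cell of each culture, and squares leave out the cluster of 329 cells, in which *Ocstamp* and *Oscar* were not tested. *Calcr* is left out of the plot. In Dmp1KO, *Ctsk* and *Acp5* lie on the negative side with the cluster and on the positive side without it.

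The same comparisons were made over all cells of a culture, stromal-like and unnamed cells included. In Fgf23cKO compared with WT 3 of 9 genes passed, all lower, where 45.1% of 15502 genes passed in either direction, with *Nfatc1* (-0.28, SE 0.10, adjusted p = 0.0502) added to *Ctsk* and *Dcstamp*. In Dmp1KO compared with WT 2 were higher and 6 lower, where 64.5% of genes passed. In Dmp1KO/Fgf23cKO compared with WT 5 were lower and 0 higher, where 51.8% passed, and compared with Dmp1KO 5 were higher and 3 lower, where 62.7% passed, without *Ocstamp* (1.48, SE 0.93, adjusted p = 0.199). The interaction passed for 7, where 55.4% of genes did.

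Detection of several of the 9 genes in 1 cell was also counted inside and outside the cluster of 329 cells. That cluster was singled out because most of these genes were found in the highest share of its cells. A higher share there follows from this choice, so the counts are a description and no further support. At 1300 UMIs a cell, 103 of 329 of its cells had at least 3 of the genes (31.3%, exact 95% interval 26.3% to 36.6%), against 50 of 12933 other myeloid-like cells (0.387%, 0.287% to 0.509%). At least 5 genes were found in 35 of its cells and 0 of the others, for which the upper end of the exact interval is 0.0285%. Such intervals cover counting error only.

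The share of myeloid-like cells with at least 3 of the genes was highest in WT. It was 2.46%, 1.73% and 2.10% in the WT cultures, 1.15%, 1.23% and 0% in Fgf23cKO, 0.693% and 0.988% in Dmp1KO, and 0.397%, 0.320% and 0.512% in Dmp1KO/Fgf23cKO. No culture of another genotype reached the WT range. The mean was 2.10% ± 0.367 (SD, n = 3) in WT, 0.796% ± 0.690 (n = 3) in Fgf23cKO, 0.841% ± 0.209 (n = 2) in Dmp1KO and 0.410% ± 0.0963 (n = 3) in Dmp1KO/Fgf23cKO. The exact two-sided permutation test gave p = 0.1 for Fgf23cKO and for Dmp1KO/Fgf23cKO against WT and p = 0.2 for Dmp1KO against WT and for Dmp1KO/Fgf23cKO against Dmp1KO, in each case the smallest p that the numbers of cultures allow. In stromal-like cells the share was 0% in 10 of the tagged cultures and 0.877% in WT culture 3.

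The order of genotypes changed with the number of genes asked for. With at least 2 genes, Dmp1KO was highest, at 10.8% and 9.56%, against 5.04%, 3.87% and 4.34% in WT and 2.05% to 2.40% in Dmp1KO/Fgf23cKO. With at least 5 genes, WT was at 1.06%, 0.536% and 0.490% and Dmp1KO at 0% and 0.0412%. Without the cluster of 329 cells, the share with at least 3 genes was 0.782% ± 0.179 in Dmp1KO (n = 2) and 0.154% ± 0.0314 in WT (n = 3). Depth mattered too: without thinning, WT cells, which are the shallowest, had the lowest share (5.87% against 22.8% to 34.1% in the other genotypes), and at 5000 UMIs, where 837 WT cells were too shallow to enter, Dmp1KO (5.98%) lay above WT (4.37%).

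**Figure D4:**
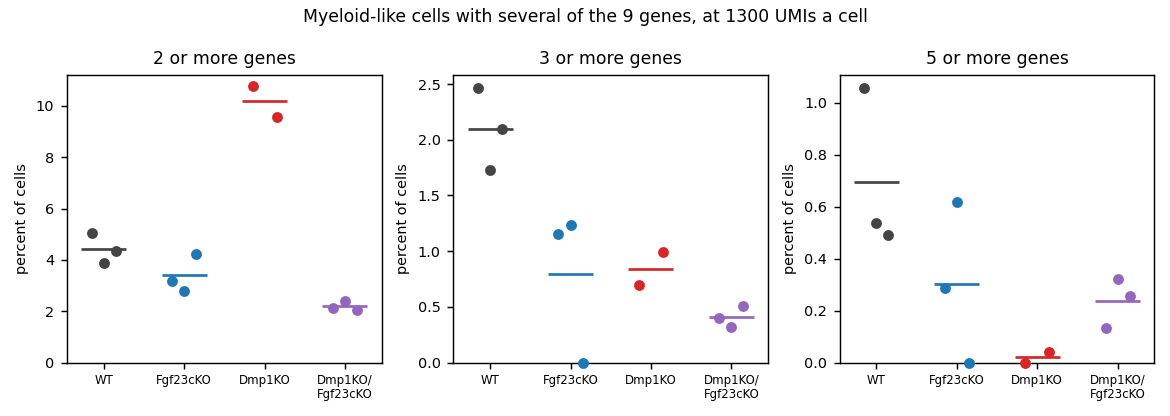
Percent of myeloid-like cells of each tagged culture with at least 2, 3 and 5 of the 9 genes, each cell thinned to 1300 UMIs. Points are cultures and bars are means. Dmp1KO is highest for at least 2 genes (10.8% and 9.56%), and WT is highest for at least 3 (1.73% to 2.46%).

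Pooled over cultures at 1300 UMIs, the more often detected genes were found together in more cells than their shares within a culture would give if they were independent. This is a description over 11 tagged cultures at 1300 UMIs, without a p, and cells of 1 culture share a library. *Mmp9* and *Acp5* occurred together in 47 cells, 20.7 times the expected 2.27, and 71.2% of cells with *Mmp9* had *Acp5*. *Mmp9* and *Dcstamp* occurred together in 21 cells, 39.2 times the expected number, and *Acp5* and *Ctsk* in 120 cells, 5.52 times. Nearest to independence were *Atp6v0d2* with *Nfatc1*, at 1.07 times (141 cells), and *Atp6v0d2* with *Ctsk*, at 1.67 times (454 cells). At 5000 UMIs *Atp6v0d2* with *Nfatc1* lay below the expected number, at 0.967 times (720 cells). *Mmp9* with *Acp5* was then at 8.20 times, *Mmp9* with *Dcstamp* at 14.0 and *Acp5* with *Ctsk* at 2.46. In Dmp1KO cultures 2 and 3, *Ctsk* and *Atp6v0d2* were found together in 174 and 150 cells (6.70% and 6.18%), where 134 and 95.4 were expected, and *Mmp9* and *Acp5* in 0 and 2 cells. In the WT cultures the first pair was found in 22, 37 and 33 cells (2.58%, 2.21% and 2.31%), where 6.55, 11.4 and 10.5 were expected, and the second in 13 cells each. Not every pair exceeded its expected number in Dmp1KO. There *Ctsk* with *Nfatc1* was found in 7 and 9 cells, where 11.3 and 10.0 were expected. *Ctsk* with *Dcstamp* was found in 9 and 4 cells, where 7.48 and 5.44 were expected.

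**Figure D5:**
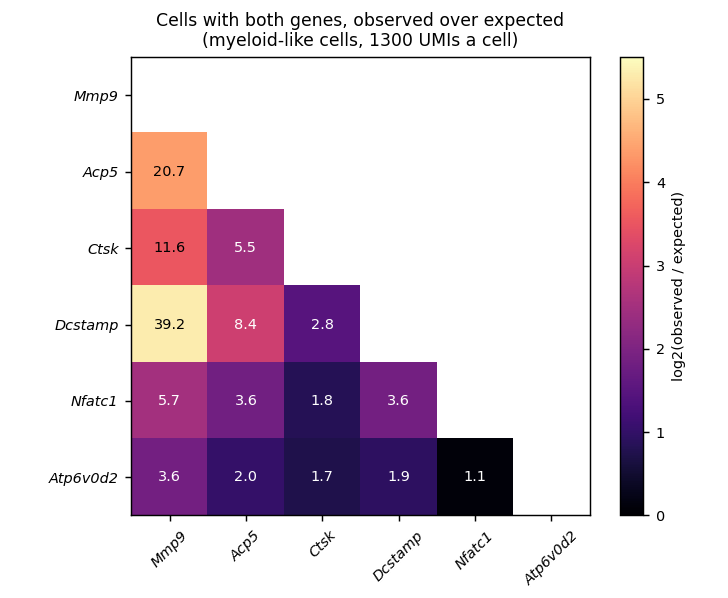
Number of myeloid-like cells with both genes of a pair divided by the number expected within cultures, for 6 of the genes at 1300 UMIs a cell. Cell labels are the ratio and color is its log2. *Mmp9* with *Dcstamp* is highest (39.2), and *Atp6v0d2* with *Nfatc1* is lowest (1.07).

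Across cells, the genes whose counts were most like the summed counts of the 9 genes were *Lgals3* (median Pearson r 0.31 over 11 cultures), *Mmp12* (0.30), *Anxa1* (0.26), *Cstb* (0.26), *Slc9b2* (0.23), *Fabp5* (0.23), *Vim* (0.22), *Jdp2* (0.22), *Sgk1* (0.22) and *Capg* (0.21), among 7007 genes. The r was above 0 in all 11 cultures for 9 of them and in 9 of 11 for *Jdp2*. Adjacent genes in this order differed by less than their range over cultures (0.158 to 0.479 for *Lgals3*). *Atp6v0d2* and *Ctsk* gave most of the summed UMIs, so the order leans to the cells that hold these genes.

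Other genes of the osteoclast pathway moved in both directions in the Dmp1KO to WT comparison of myeloid-like cells, for which 35.8% and 34.2% of all genes were called higher and lower and the median log2 fold change of all genes was 0.0028. Of 10 receptors and signaling genes, 4 were higher and 3 lower (median -0.0071), with *Trem2*, a lipid-sensing receptor of macrophages, up by 1.30 (SE 0.08), *Btk*, a kinase, down to -0.68 (SE 0.05) and the adaptor gene *Tyrobp* up by 0.47 (SE 0.05). Of 10 transcription factors that promote osteoclasts, 3 were higher and 4 lower (median -0.09), with *Spi1*, the myeloid factor PU.1, at 0.77 (SE 0.05), *Jdp2*, an AP-1 family factor, at -2.85 (SE 0.22) and *Fos* at -0.91 (SE 0.09). *Irf8*, a factor that restrains osteoclasts, rose by 0.43 (SE 0.05). Of 13 acid secretion and attachment genes, 4 were higher and 7 lower (median -0.18), with the creatine kinase gene *Ckb* at 2.67 (SE 0.12), the exchanger gene *Slc9b2* at -1.55 (SE 0.21) and the proton pump gene *Atp6v1c1* at 0.59 (SE 0.08). Of 7 cell surface genes linked to fusion, 3 were higher and 2 lower (median 0.02), with the tetraspanin gene *Cd9* at 1.37 (SE 0.07), *Cd44* at 0.66 (SE 0.07) and the metalloprotease gene *Adam8* at 0.24 (SE 0.07).

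In Dmp1KO/Fgf23cKO compared with Dmp1KO, *Ckb* (-2.11, SE 0.11), *Cd9* (-1.03, SE 0.07), *Adam8* (-0.35, SE 0.07), *Trem2* (-0.80, SE 0.08) and *Atp6v1c1* (-0.68, SE 0.08) fell, and *Jdp2* rose (1.67, SE 0.21). Among the 10 transcription factors that promote osteoclasts, 8 were higher and 1 lower, where 29.8% and 37.8% of all genes were (median 0.58, against -0.05 for all genes), with *Relb* at 0.88 (SE 0.07) and *Nfkb2* at 0.58 (SE 0.08), which encode NF-κB subunits. The other lists split 5 higher and 3 lower of 10 receptors and signaling genes, 7 and 5 of 13 acid secretion and attachment genes, and 3 and 2 of 7 surface genes. In Fgf23cKO compared with WT, where 25.8% of all genes were called higher and 24.8% lower, the lists split 4 and 2, 4 and 3, 3 and 3, and 4 and 1, in the order receptors, promoting factors, acid secretion and surface genes. In Dmp1KO/Fgf23cKO compared with WT, where 29.6% and 30.2% were, they split 5 and 1, 6 and 3, 3 and 4, and 3 and 0 in the same order. In the interaction, where 30% and 34.1% were, they split 4 and 2, 7 and 1, 6 and 4, and 2 and 3. Each list has few genes, and these counts are a description.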

How the data were processed

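Single-cell RNA-Seq was analysed in 15 samples of mouse BMSC cultures. The values deposited by the authors are raw UMI counts per gene and cell from Cell Ranger, aligned to mm10 (GRCm38), and the aligner settings are not given in the sources used here. The study demultiplexed cultures by CellPlex tag, and samples numbered 4 hold the untagged cells. The 9 genes, the pathway lists and the comparisons were chosen with earlier results of these data known.

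Cells were normalised with sctransform 0.4.2 and clustered in Seurat 5.3.0 on 3000 variable genes, from which 40 genes (the 9 and the pathway lists) were left out, with 30 principal components at resolution 0.8. Clusters were named from fixed markers, and the rule that joined them into classes was set after the data were examined. No doublet caller was run. Raw counts were summed per culture, for myeloid-like cells and for all cells, and tested with edgeR 4.0.16 (quasi-likelihood, TMM factors, R 4.3.3), with Benjamini-Hochberg adjustment over all genes left by the filter on low counts. All 9 genes passed this filter. Levels in CPM are a gene's UMIs in each 1e6 summed UMIs, without TMM factors. For shares of cells, each cell was thinned to 1300 UMIs, and shares per culture were compared by exact permutation (Python 3.11.15, scipy 1.17.1). The 95% intervals of shares were computed by the Clopper-Pearson method. The scripts were tested on simulated data. At an adjusted p under 0.1, edgeR recovered on average 96.4% of changed genes in simulated myeloid-like sums and 87.1% over all cells. On average 13.0% and 9.76% of the calls were false, so the first lay above the nominal rate. The simulation changed few genes, all by the same large fold and only in Dmp1KO against WT. In that comparison of myeloid-like cells, 35.8% of genes were called higher and 34.2% lower, and some changes called above were smaller. These rates need not hold for the tests above.

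Genes named are the 9, up to 3 called genes with the smallest p per pathway list and comparison, the 10 genes most like the 9 (median r, among genes with a UMI in at least 2% of cells), and *Dmp1* and *Fgf23* as checks. For some comparisons the lists are given as counts alone. The counts of 1 list are not reported here. Alternatives covered the depth of thinning, the number of genes asked for, cell filters, a per-cell rule for myeloid cells, clustering, untagged samples, the threshold, RLE factors, DESeq2 1.42.0, the filter on low counts, a replicate block and leaving out each culture.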

Additional observations from a re-analysis of the deposited data

Results flagged for a closer look

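The change with *Fgf23* deletion in myeloid-like cells differed between the Dmp1KO and the WT background in edgeR's interaction test for 8 of the 9 genes. Of all 13739 genes tested, 30% were called more positive and 34.1% more negative, so such a call was common. The difference (log2, Dmp1KO background minus WT background) was 5.29 for *Mmp9*, 2.46 for *Ocstamp*, 3.81 for *Oscar*, 2.47 for *Acp5*, 0.98 for *Nfatc1*, -1.66 for *Dcstamp* and -2.35 for *Atp6v0d2*. For *Calcr* it was 8.96, a fitted value that depends on the prior count and is no bound, since Dmp1KO cultures had 0 UMIs. Without the leading cell of each sample, *Oscar* (1.25, adjusted p = 0.499) and *Ocstamp* (1.56, adjusted p = 0.217) did not pass, and *Calcr* was filtered out.

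In groups of 4 samples, untagged samples included, 7 of the 27 groups tested had a sample far from the others in its level in myeloid-like cells. The rule sets a gap against the range, and its rate of about 1 in 20 assumes normal values from like samples. Untagged samples and genes found in single cells do not meet this, so the number flagged is a description. *Acp5* stood at 133 CPM in Dmp1KO/Fgf23cKO replicate 2, against 49.8 to 57.3 in the others. *Atp6v0d2* stood at 245 CPM and *Nfatc1* at 46.0 CPM in Fgf23cKO replicate 3. *Nfatc1* stood at 83.8 CPM in the untagged Dmp1KO/Fgf23cKO sample, and *Oscar* at 0.914 CPM in the untagged WT sample. *Calcr* stood at 1.53 CPM in WT replicate 2 and at 0.767 CPM in Fgf23cKO replicate 2, each nearly all from 1 cell.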

How the results depend on the processing

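For the difference in the share of myeloid-like cells with at least 3 of the genes, in percentage points and in the order Fgf23cKO, Dmp1KO and Dmp1KO/Fgf23cKO against WT and Dmp1KO/Fgf23cKO against Dmp1KO, the values without thinning were 24.1, 28.2, 16.9 and -11.3. With at least 5 genes they were -0.392, -0.673, -0.458 and 0.215, and without the cluster of 329 cells -0.154, 0.627, -0.110 and -0.737. For the last 3 of these comparisons, they were 1.61, -2.89 and -4.51 at 5000 UMIs and 5.75, -2.23 and -7.98 with at least 2 genes. Leaving out 1 culture gave -1.52 to -0.903, -1.44 to -1.07, -1.87 to -1.50 and -0.579 to -0.283. Genes called in myeloid-like cells of Fgf23cKO against WT numbered 9 without a filter on low counts and 5 without the leading cells. For Dmp1KO/Fgf23cKO against WT they numbered 3 under the per-cell rule and 3 without the cluster, and against Dmp1KO 5 without the leading cells. Over all cells, Dmp1KO/Fgf23cKO against WT gave 2 at an adjusted p under 0.05, 3 with RLE factors and 3 with DESeq2. Leaving out 1 culture gave, in myeloid-like cells, 1 to 9 calls for Fgf23cKO and 8 to 9 for Dmp1KO against WT, 2 to 6 and 5 to 9 for Dmp1KO/Fgf23cKO against WT and Dmp1KO, and 6 to 9 for the interaction. Over all cells the ranges were 1 to 7, 6 to 8, 2 to 5, 4 to 8 and 3 to 8, with 7 for Fgf23cKO without its replicate 2 and 1 without WT replicate 3. Dmp1KO/Fgf23cKO against WT gave 2 without WT replicate 1, WT replicate 3 or Dmp1KO/Fgf23cKO replicate 1, and 3 without Dmp1KO replicate 2 or 3 or Dmp1KO/Fgf23cKO replicate 3. Against Dmp1KO it gave 4 without Dmp1KO replicate 2 and 5 without Dmp1KO replicate 3 or Dmp1KO/Fgf23cKO replicate 2, and the interaction gave 3 without Dmp1KO replicate 2. Where a Dmp1KO culture is left out, the remaining one is assumed to vary like the other groups. Shares of all genes called in these refits are not given, so these counts and ranges are a description. Fold changes turned sign without the cluster for *Ctsk* (0.59 in Fgf23cKO, 2.34 in Dmp1KO), *Acp5* (0.29 in Fgf23cKO, 0.95 in Dmp1KO, -0.98 between Dmp1KO/Fgf23cKO and Dmp1KO, -1.27 in the interaction) and *Nfatc1* (0.0085 in Fgf23cKO, 0.25 in Dmp1KO/Fgf23cKO). *Oscar* turned to -0.73 between Dmp1KO/Fgf23cKO and Dmp1KO without the leading cells. *Atp6v0d2*, not called in Dmp1KO/Fgf23cKO against WT, was -0.18 with untagged samples and ranged from -0.069 (without WT replicate 2) through -0.048 (without Dmp1KO/Fgf23cKO replicate 2) to 0.10 when 1 culture was left out. *Calcr*, whose fitted values depend on the prior count, ranged from -7.04 to 1.29 (without WT replicate 2) in Fgf23cKO and from -0.044 (without WT replicate 3) to 3.26 in Dmp1KO/Fgf23cKO. The cause of these changes was not tested. Deviations of same-numbered cultures had r from -0.156 to 0.0977 in myeloid-like cells and from -0.273 to 0.274 over all cells. Values were centered within each genotype, so the r of its cultures depend on each other, and those of the 2 Dmp1KO cultures mirror each other. Whether the numbers pair cultures cannot be told from this. With a replicate block the calls in the order above were 3, 8, 6, 9 and 8 in myeloid-like cells and 4, 8, 5, 6 and 8 over all cells. Of the fold changes under alternatives that keep every culture, 517 kept direction and side of the threshold, 15 lost and 23 gained the call, and 10 turned sign. Depth limits *Calcr*, *Oscar* and *Ocstamp* most, with 0 to 72 *Calcr* UMIs per genotype.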

Other observations

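The untagged cells of each genotype, which entered no main test, had levels of the same genes as follows. In their myeloid-like cells *Atp6v0d2* stood at 197 CPM in WT, 175 in Fgf23cKO, 589 in Dmp1KO and 83.5 in Dmp1KO/Fgf23cKO. *Dcstamp* stood at 1.37, 5.05, 32.9 and 3.79 CPM, *Acp5* at 129, 95.6, 16.9 and 51.1 CPM, and *Ctsk* at 497, 214, 308 and 86.1 CPM in the same order of genotypes. The cluster of 329 cells made up 7.75%, 3.55%, 0% and 1.92% of their myeloid-like cells. Each genotype has 1 such sample, so these values have no replicate check.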
